A study of Mus musculus with 12 samples.

Results

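Enteroendocrine hormone genes were followed in the jejunum, the part of the small intestine between duodenum and ileum, taken whole from mice with a knockout (KO) of Fgfr1op and of wild-type (WT) mice. The set held 10 of the 19938 genes tested. They were the peptide hormone genes Nts, Gip, Cck, Sct, Gcg, Pyy, Ghrl, Sst and Tac1, and Chga, which encodes chromogranin A of the hormone granules. Members were the rows of the array whose only gene symbol was one of these names, and each of the 10 genes had 1 such row. Fgfr1op, now named Cep43, encodes a protein of the centrosome. There were 6 groups of 2 mice with 1 array per mouse: Fgfr1op KO and WT at day 6, KO and WT at day 9, and KO and WT at day 12, days that the labels count as post-tamoxifen. The protocol, which is given for every sample, has tamoxifen injected into the abdomen at 75 mg per kg on 5 days in a row. The promoter that drives the recombinase, the cells in which it acts, and the age and strain of the mice are not stated in the labels. The labels count days after tamoxifen for WT mice as for KO mice. They do not say whether the WT mice carried the recombinase, so effects of the recombinase and of gene loss cannot be told apart.

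Enteroendocrine cells are scattered single cells of the gut epithelium that sense nutrients and release peptide hormones and serotonin. They arise from crypt stem cells through a short-lived progenitor that expresses Neurog3, and they then take on different hormone profiles. In the mouse small intestine, L cells make glucagon-like peptides and peptide YY, N cells neurotensin, K cells GIP, I cells cholecystokinin, S cells secretin, X cells ghrelin, D cells somatostatin and enterochromaffin cells serotonin and substance P. These profiles overlap and vary along the crypt-villus axis, with Tac1 and Gcg more typical of crypts and Sct and Nts of villi. Hormones are cut from longer precursors and stored with granins in dense-core granules.

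At day 12 the hormone genes fell into a group that was lower in KO jejunum and a group that was not called. Nts, the neurotensin precursor, was 6.21-fold lower in KO, Sst was 2.83-fold lower, Gip 2.41-fold, Chga 2.01-fold, Gcg 1.83-fold and Ghrl 1.44-fold. The fold of Nts may be understated, since its KO signal at day 12 was at the level of dim genes. Cck, Sct, Tac1 and Pyy did not pass the test. At day 6 none of the 10 genes passed, and at day 9 Nts, Chga, Sst and Gcg were lower in KO. A gene is called here when its limma p, adjusted over all 19938 genes, is under 0.05.

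The promoters of 4 members are shown so that Nts, Sst and Chga, which were lower in KO at day 12, can be set beside Cck, whose groups coincided then. Each is the 250 bases before a RefSeq transcript start in build GRCm38.p6, written from 5′ to 3′ on the strand of the gene. Nts lies on the minus strand of chromosome 10 (chr10:102490419-102490668), Sst on the minus strand of chromosome 16 (chr16:23890845-23891094), Chga on the plus strand of chromosome 12 (chr12:102554691-102554940) and Cck on the minus strand of chromosome 9 (chr9:121495695-121495944). Capitals mark TGACG, the core of the cAMP response element, and CAGNTG, an E-box form of the kind bound by basic helix-loop-helix factors, each on either strand, so that TGACG can also read CGTCA.
Nts: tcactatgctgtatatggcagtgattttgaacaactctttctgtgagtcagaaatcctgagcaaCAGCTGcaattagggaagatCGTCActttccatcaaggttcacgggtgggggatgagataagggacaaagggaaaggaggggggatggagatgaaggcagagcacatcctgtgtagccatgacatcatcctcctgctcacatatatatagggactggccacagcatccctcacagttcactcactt
Sst: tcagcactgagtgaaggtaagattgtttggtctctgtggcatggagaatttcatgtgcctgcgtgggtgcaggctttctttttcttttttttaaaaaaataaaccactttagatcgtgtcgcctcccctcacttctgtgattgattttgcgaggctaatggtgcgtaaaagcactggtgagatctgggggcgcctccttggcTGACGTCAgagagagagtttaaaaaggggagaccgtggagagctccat
Chga: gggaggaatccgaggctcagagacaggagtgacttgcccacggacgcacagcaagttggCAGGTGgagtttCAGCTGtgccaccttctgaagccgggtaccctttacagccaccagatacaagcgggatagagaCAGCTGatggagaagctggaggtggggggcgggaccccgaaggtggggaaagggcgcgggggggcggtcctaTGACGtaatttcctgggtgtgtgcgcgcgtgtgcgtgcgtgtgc
Cck: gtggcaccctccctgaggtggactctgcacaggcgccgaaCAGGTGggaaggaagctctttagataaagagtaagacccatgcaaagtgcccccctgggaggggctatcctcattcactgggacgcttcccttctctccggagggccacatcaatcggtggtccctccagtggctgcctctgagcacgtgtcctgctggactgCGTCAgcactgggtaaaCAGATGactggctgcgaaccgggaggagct
The palindrome TGACGTCA stood at position -48 of Sst and in none of the other 9 members' windows, and was found in 1.55% of 32841 mouse promoter windows of the same length. A gene can have several windows (Ghrl has 4 and Pyy 2), and is counted here when any of them holds the motif; on that count 1.77% of 27018 genes held the palindrome. TGACG was found in 5 of 10 members (Nts, Sst, Chga, Cck and Tac1), in 19.8% of genes and in 17.8% of windows. CAGNTG was found in 8 of 10 members, all but Pyy and Sst, in 48.2% of genes and in 44.8% of windows. Both motifs thus occurred in members that fell and in members that were not called, and a match describes these letters only.

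**Figure D1:**
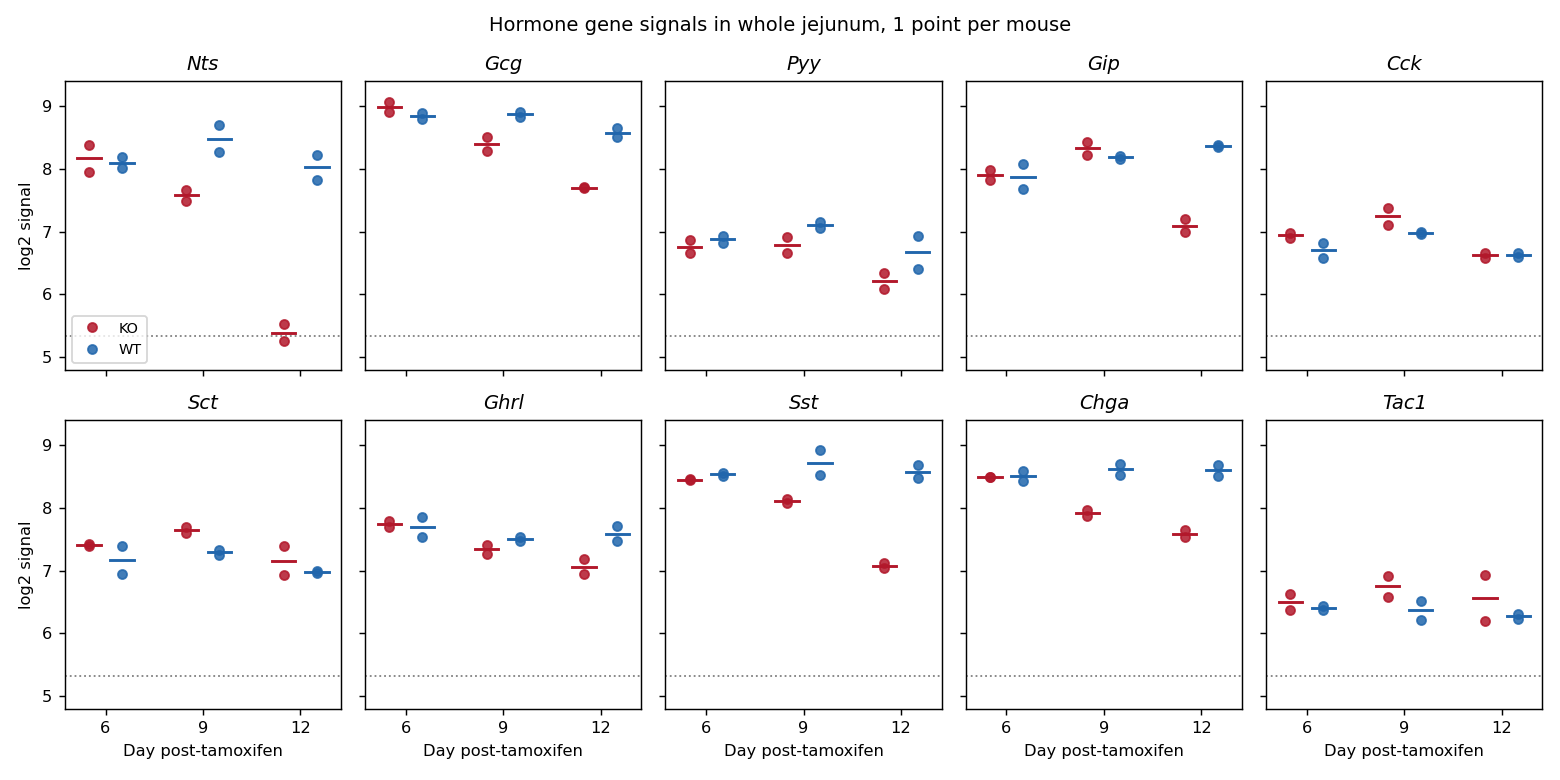
Log2 signal (vertical axis) of each of the 10 genes by day after tamoxifen (horizontal axis), with 1 point per mouse, red for KO and blue for WT, and a bar at each group mean (n = 2). The dotted line at 5.33 marks the level under which 95% of odorant receptor genes lie; the day 12 KO points of Nts reach it, while the points of the other 9 genes stay above it.

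Signals are log2 values, so that 1 unit is a factor of 2, and they were compared only between arrays for the same gene. As a guide to dim signal, 95% of 1015 odorant receptor genes, which are little expressed in gut, had a mean signal under 5.33, and 30.7% of all genes had a mean at or under that level. All 10 members had means above it. Differences carry the standard error (SE) of the limma fit, which shares 1 estimate of spread among the 6 groups. The p-values set each difference against the spread between mice within groups, moderated over all genes, and each group held only 2 mice.

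Nts, Gcg and Pyy are hormone genes more typical of the distal small intestine. Nts had log2 signals of 8.39 and 7.96 in KO and 8.19 and 8.01 in WT at day 6. At day 9 it had 7.67 and 7.49 in KO and 8.26 and 8.69 in WT, and at day 12 it had 5.53 and 5.25 in KO and 8.22 and 7.83 in WT. The groups overlapped at day 6 and were apart at days 9 and 12, with every KO mouse below every WT mouse. The KO minus WT difference of Nts was 0.07 (SE 0.19, limma adjusted p = 0.947) at day 6, and Nts fell by 0.90 in KO (SE 0.19, adjusted p = 0.00401) at day 9 and fell by 2.64 (SE 0.19, adjusted p = 1.39e-06) at day 12. Of the 2 KO signals at day 12, 1 lay under the dim level of 5.33 and the other just above it, and no exact size can be read from that fall.

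Gcg, which encodes the precursor of glucagon-like peptides, had 9.06 and 8.91 in KO and 8.80 and 8.89 in WT at day 6. It had 8.51 and 8.28 in KO and 8.83 and 8.91 in WT at day 9, and 7.70 and 7.71 in KO and 8.65 and 8.50 in WT at day 12. KO mice stood above WT mice at day 6 and below them at days 9 and 12. Gcg was 0.14 higher (SE 0.11, adjusted p = 0.705) at day 6, a difference that did not pass, and fell by 0.47 (SE 0.11, limma adjusted p = 0.00588) at day 9 and fell by 0.87 (SE 0.11, adjusted p = 8.16e-05) at day 12. Pyy, an L cell hormone that slows gut transit, had 6.86 and 6.66 in KO and 6.82 and 6.94 in WT at day 6, 6.92 and 6.66 in KO and 7.05 and 7.15 in WT at day 9, and 6.35 and 6.08 in KO and 6.93 and 6.41 in WT at day 12. Its differences were -0.12, -0.31 and -0.46 (SE 0.16 each), none of which passed at a single day (adjusted p = 0.874, 0.182 and 0.0609 with limma). The 95% interval at day 12 ran from -0.82 to -0.10, and the value depended on single mice: it was -0.20 (adjusted p = 0.473) without WT replicate 1, -0.71 (adjusted p = 0.0102) without WT replicate 2 and -0.59 (adjusted p = 0.0499) without KO replicate 1 of that day.

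The day 9 calls of Nts and Gcg rested on WT replicate 2 of that day. Without it the limma differences were -0.68 (adjusted p = 0.0504) and -0.43 (adjusted p = 0.0517), and 2 members were called in place of 4, while the genes called among all 19938 were 3646 in place of 5917. The day 12 calls of both genes held with any 1 of the 12 arrays left out.

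Gip, Cck and Sct are hormone genes more typical of the proximal small intestine. Gip, which encodes the insulin-stimulating peptide GIP of K cells, had 7.83 and 7.98 in KO and 8.07 and 7.68 in WT at day 6. It had 8.43 and 8.22 in KO and 8.16 and 8.21 in WT at day 9, and 7.19 and 6.99 in KO and 8.34 and 8.38 in WT at day 12. The genotypes overlapped at day 6, KO stood slightly above WT at day 9, and KO stood well below WT at day 12. The differences were 0.03 (SE 0.13, adjusted p = 0.972) and 0.14 (SE 0.13, adjusted p = 0.466) at days 6 and 9, and Gip fell by 1.27 (SE 0.13, limma adjusted p = 2.85e-05) at day 12. Thus Gip was not called at day 9, when Nts, Chga, Sst and Gcg were.

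Cck, whose product cholecystokinin contracts the gallbladder and slows gastric emptying, had 6.90 and 6.98 in KO and 6.57 and 6.83 in WT at day 6. It had 7.11 and 7.37 in KO and 7.0 and 6.97 in WT at day 9, and 6.58 and 6.66 in KO and 6.59 and 6.67 in WT at day 12. KO mice stood above WT mice at days 6 and 9, and the groups coincided at day 12. The differences were 0.24 and 0.26 (SE 0.11, adjusted p = 0.446 and 0.114) at days 6 and 9 and -0.008 at day 12, where the 95% interval of -0.26 to 0.24 leaves out falls of the size of those of Gip or Sst. Sct, which encodes secretin, the hormone that stimulates bicarbonate secretion, had 7.43 and 7.39 in KO and 6.95 and 7.40 in WT at day 6, 7.69 and 7.60 in KO and 7.25 and 7.33 in WT at day 9, and 7.39 and 6.93 in KO and 6.96 and 6.99 in WT at day 12. KO mice were above WT mice at day 9 alone, and the differences were 0.23, 0.36 and 0.18 (SE 0.16 each, limma adjusted p = 0.667, 0.117 and 0.470). The day 12 interval of Sct ran from -0.16 to 0.53. With quantile normalisation both Cck and Sct were called as higher in KO at day 9, by 0.34 (adjusted p = 0.0408) and 0.47 (adjusted p = 0.0410). Cck was also called at day 9 with a smooth muscle covariate (0.27, adjusted p = 0.0441), and Sct with the arrays of that day alone (0.36, adjusted p = 0.0357).

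Sst, the somatostatin gene of D cells, which restrains the release of other gut hormones, had 8.45 in each KO mouse and 8.51 and 8.56 in WT at day 6. It had 8.14 and 8.08 in KO and 8.52 and 8.92 in WT at day 9, and 7.12 and 7.04 in KO and 8.68 and 8.47 in WT at day 12. KO mice were below WT mice at all 3 days, by an amount that passed at days 9 and 12. The differences were -0.08 (SE 0.13, adjusted p = 0.886), -0.60 (SE 0.13, adjusted p = 0.00383) and -1.5 (SE 0.13, limma adjusted p = 5.02e-06), and the day 9 and day 12 calls held with any 1 array left out. Ghrl, which encodes ghrelin, a hormone that stimulates appetite, had 7.70 and 7.78 in KO and 7.54 and 7.85 in WT at day 6, 7.27 and 7.41 in KO and 7.47 and 7.53 in WT at day 9, and 7.18 and 6.94 in KO and 7.47 and 7.71 in WT at day 12. The groups overlapped at day 6, and KO mice were below WT mice afterwards. Ghrl stood at 0.05 and -0.16 (SE 0.13, adjusted p = 0.948 and 0.395) at days 6 and 9 and fell by 0.53 (SE 0.13, limma adjusted p = 0.00969) at day 12. That call ended without KO replicate 2 (adjusted p = 0.0684) or WT replicate 2 (adjusted p = 0.0990) of day 12, with a difference of -0.41 in either case.

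Chga, a granin found in many enteroendocrine cells and most abundant in enterochromaffin cells, had 8.50 and 8.49 in KO and 8.59 and 8.44 in WT at day 6. It had 7.87 and 7.97 in KO and 8.53 and 8.70 in WT at day 9, and 7.65 and 7.53 in KO and 8.68 and 8.52 in WT at day 12. The KO mice lay between the WT mice at day 6 and below them at days 9 and 12. Chga stood at -0.02 (SE 0.10, adjusted p = 0.976) at day 6 and fell by 0.70 (SE 0.10, adjusted p = 4.14e-04) at day 9 and fell by 1.01 (SE 0.10, limma adjusted p = 2.30e-05) at day 12. Tac1, which encodes substance P and is made by enterochromaffin cells and enteric neurons, had 6.37 and 6.63 in KO and 6.44 and 6.38 in WT at day 6, 6.92 and 6.58 in KO and 6.52 and 6.22 in WT at day 9, and 6.93 and 6.20 in KO and 6.23 and 6.31 in WT at day 12. Its differences were 0.09, 0.38 and 0.29 (SE 0.21 each, adjusted p = 0.939, 0.195 and 0.357 with limma). At day 12 the value turned on KO replicate 2, without which Tac1 was called as higher in KO by 0.65 (adjusted p = 0.0167), and it was -0.07 without KO replicate 1.

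**Figure D2:**
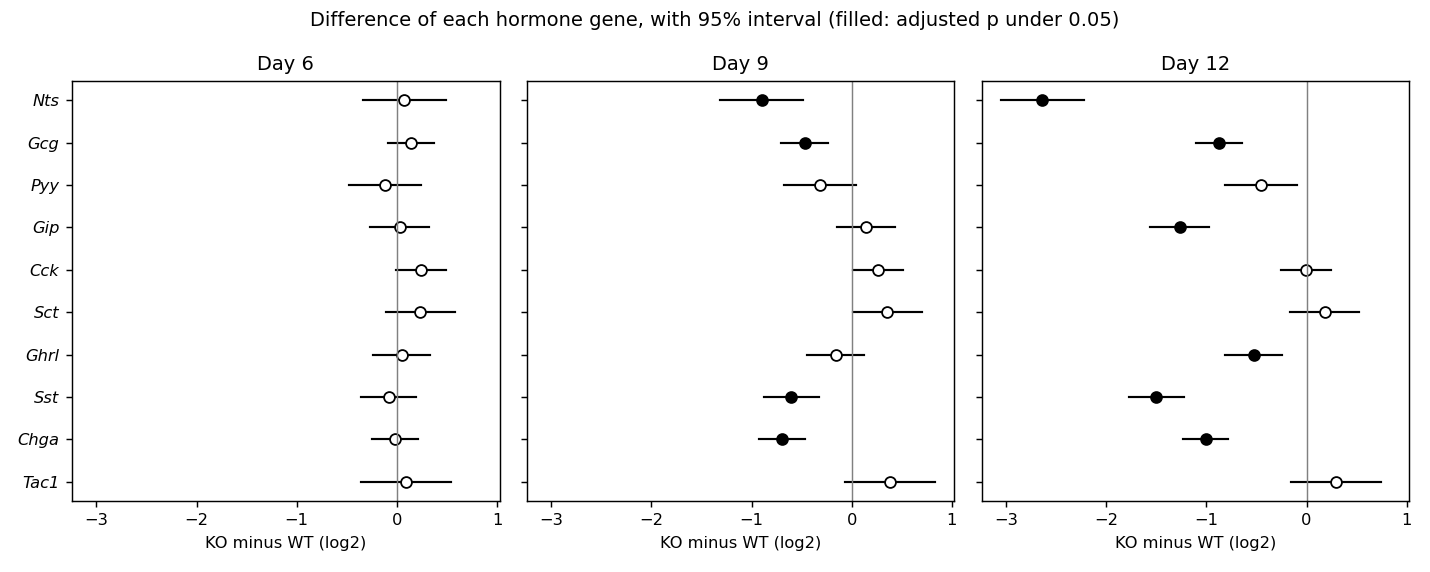
KO minus WT difference on the log2 scale (horizontal axis) for each gene (rows) at days 6, 9 and 12, with the 95% interval of the limma fit as a line (2 mice per group). Filled points have an adjusted p under 0.05: 0 at day 6, 4 at day 9 and 6 at day 12, all of them to the left of 0.

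At day 6, limma called 0 of 10 members, against 1.03% of all genes, and 0 had an unadjusted p under 0.05. Of the members, 3 had groups that did not overlap (Cck and Gcg higher and Sst lower in KO), against 44.6% of all genes. At day 9, 4 of 10 were called, all lower, where 29.7% of all genes were called and 17.1% were called as lower. All 10 had groups that did not overlap, 4 above and 6 below, and 65.8% of all genes did. At day 12, 6 of 10 were called, all lower, where 27.3% of all genes were called and 13.7% were called as lower. At day 12, 7 of 10 had KO below WT with no overlap and 3 overlapped (Cck, Sct and Tac1), where 58.2% of all genes had groups that did not overlap. A fall of at least 1.5-fold at day 12 was called for 5 of the 10, all named above but Ghrl, and for 8.08% of all genes. The median difference of the members was 0.06, -0.24 and -0.70 at days 6, 9 and 12, beside 0.003, 0.03 and 0.02 for all genes tested. Averaged over the 3 days, 7 of 10 were lower (Nts, Gip, Gcg, Pyy, Ghrl, Sst and Chga), where 32.6% of genes were called and 16.9% as lower. The averages of Pyy (-0.30, limma adjusted p = 0.0318) and Ghrl (-0.21, adjusted p = 0.0473) lost their call in 10 and 11 of 21 alternatives, most of which left out 1 array. With a change of at least 1.5-fold added to the rule, 2 members, Nts and Sst, were called for the average, against 7.37% of all genes.

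The KO minus WT difference changed with the day for 5 of the 10 genes by limma's F test of the genotype by day interaction, which called 18.5% of all genes. They were Nts (adjusted p = 1.84e-04), Gip (7.34e-04), Sst (9.16e-04), Chga (0.00233) and Gcg (0.00250). The others were Ghrl (0.101), Cck (0.399), Pyy (0.556), Tac1 (0.740) and Sct (0.833). Between days 6 and 9 the difference moved down for Nts (-0.97, SE 0.27), Chga (-0.68, SE 0.15) and Gcg (-0.61, SE 0.15), that is for 3 of 10 members, where 12.7% of genes were called and 9.19% moved down. Between days 9 and 12 it moved down for Nts (-1.74, SE 0.27), Gip (-1.41, SE 0.19) and Sst (-0.89, SE 0.18), again 3 of 10, where 6.08% of genes were called and 2.02% moved down. The later step of Chga (-0.31, SE 0.15, adjusted p = 0.238) and Gcg (-0.40, SE 0.15, adjusted p = 0.140) and the earlier step of Sst (-0.52, SE 0.18, adjusted p = 0.0810) did not pass with limma. Gip moved by 0.12 (SE 0.19, adjusted p = 0.743) in the earlier step.

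**Figure D3:**
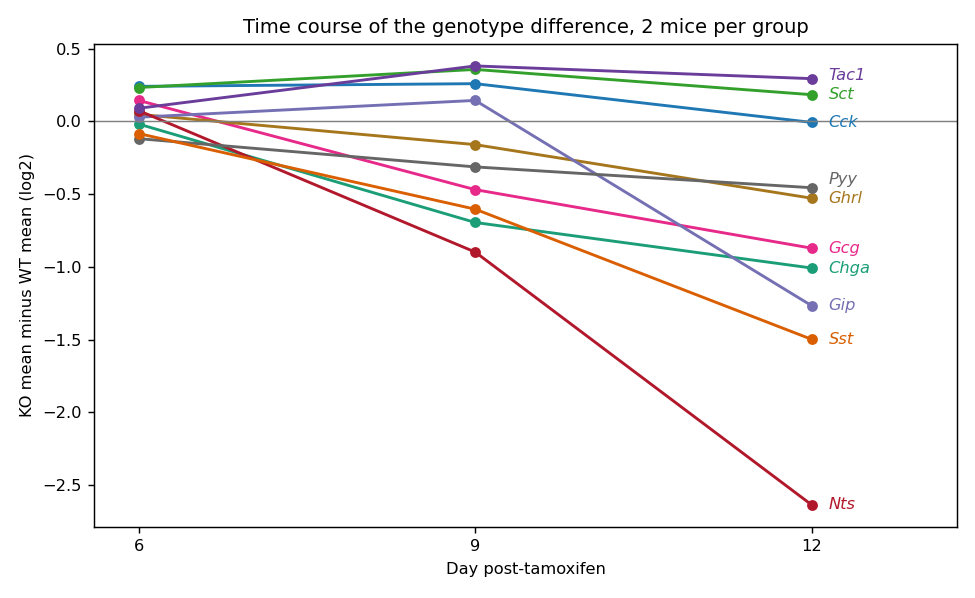
KO group mean minus WT group mean in log2 units (vertical axis) for each of the 3 days after tamoxifen (horizontal axis), with 1 line per gene and 2 mice per group. Nts, Sst, Chga and Gcg are lower at day 9, Gip stays above 0 until day 9 and stands at -1.27 at day 12, and Cck, Sct and Tac1 stay within 0.4 of 0 throughout.

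Within KO mice, 8 of 10 members changed over days by limma's F test, all but Sct and Tac1, where 37.6% of genes did. From day 9 to day 12, 8 of 10 were lower at the later day, all but Ghrl and Tac1, where 22.9% of genes were called and 8.81% as lower. The falls in KO were those of Nts (-2.19, SE 0.19), Gip (-1.23, SE 0.13), Sst (-1.03, SE 0.13), Gcg (-0.70, SE 0.11), Cck (-0.62, SE 0.11), Pyy (-0.57, SE 0.16), Sct (-0.49, SE 0.16) and Chga (-0.33, SE 0.10). Between the same days in WT mice, Cck stood at -0.35 (SE 0.11), Sct at -0.31 (SE 0.16) and Pyy at -0.43 (SE 0.16), with adjusted p of 0.439, 0.595 and 0.485 with limma. In WT, Gcg stood at -0.29 (SE 0.11, limma adjusted p = 0.465) and Chga at -0.02 (SE 0.10, adjusted p = 0.972). The step in KO was not called as different from that in WT for Cck, Sct, Pyy, Gcg or Chga. It was called as different for Nts, Gip and Sst. From day 6 to day 9 in KO, Gip rose by 0.42 (SE 0.13, limma adjusted p = 0.0395), while Nts, Gcg, Ghrl and Chga fell, 5 of 10 where 24.5% of genes were called. In WT mice limma's F test over days called 0 of 10 members and 0.0201% of all genes; 3 of 10, Gip, Cck and Gcg, had an unadjusted p under 0.05.

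Other lists of genes tied to enteroendocrine cells held genes called in both directions at day 12. At that day 27.3% of all genes were called, and 13.7% as lower. The cells that gave these signals cannot be told apart in whole tissue. Of 22 measured granins, convertases and granule proteins, 4 were higher, 3 lower and 15 not called at day 12, with a median of 0.05. Mean signals of 5 of the 22 were at the level of odorant receptors. Chgb, the granin most like Chga in use, had 9.24 and 8.61 in KO and 8.59 and 8.51 in WT at day 12, a difference of 0.37 (SE 0.16, limma adjusted p = 0.122) with KO above WT, where Chga fell. Pcsk1, the convertase that cuts several prohormones in these cells, was lower at day 9 by 0.45 (SE 0.12, adjusted p = 0.0167) in KO and higher at day 12 by 0.53 (SE 0.12, adjusted p = 0.00632). Ptprn, a membrane protein of dense-core granules, rose by 0.73 (SE 0.13) at day 12, while Rph3al, a regulator of exocytosis, fell by 0.61 (SE 0.11). Ptprn2, of the same list, fell by 0.39 (SE 0.13) at day 9 and by 0.47 (SE 0.13) at day 12. The vesicle GTPase Rab3c fell by 0.66 (SE 0.15), but its signals were dim. They were 4.77 and 4.72 in KO and 5.33 and 5.47 in WT, beside the dim level of 5.33. Syt7, a calcium sensor of exocytosis, rose at day 9 (0.75, SE 0.15), and Scg2, a granin, stood at 0.06 (adjusted p = 0.876) at day 12.

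Of 22 transcription factors of the lineage, 6 were higher, 2 lower and 14 not called at day 12, with a median of -0.03. Mean signals of 4 of the 22 were at the level of odorant receptors. Neurog3, which starts the lineage, had 5.28 and 5.51 in KO and 5.86 and 5.69 in WT at day 12. All 4 values were close to the level of odorant receptors, and the difference of -0.38 (SE 0.15) did not pass with limma (adjusted p = 0.0781). Neurod1, which acts after Neurog3, had 6.52 and 6.34 in KO and 5.77 and 5.53 in WT, a rise of 0.78 (SE 0.13, limma adjusted p = 6.66e-04). Its WT signals, too, were close to the level of odorant receptors. Foxa1 (1.06, SE 0.20), Sox4 (1.00, SE 0.17) and Insm1 (0.33, SE 0.10) rose as well, and Gata4 (-0.78, SE 0.15) and Mlxipl (-0.78, SE 0.19) fell. Foxa1, Sox4, Gata4 and Mlxipl are also expressed in other epithelial cells.

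Of 13 genes of serotonin handling and enterochromaffin cells, 2 were higher, 4 lower and 7 not called at day 12, with a median of -0.008. At day 9, 2 were higher, 6 lower and 5 not called, with a median of -0.28, where 29.7% of all genes were called. Mean signals of 2 of the 13 were at the level of odorant receptors. Tph1, the enzyme that starts serotonin synthesis in the gut, had 6.96 and 7.27 in KO and 6.96 and 6.81 in WT at day 12. The difference was 0.23 (SE 0.11, limma adjusted p = 0.165) at day 12 and -0.28 (SE 0.11, adjusted p = 0.087) at day 9. Slc18a1, which loads serotonin into granules, fell by 0.76 (SE 0.18) at day 9 and stood at 0.28 (adjusted p = 0.308) at day 12. The ion channel Trpa1, a sensor of irritants, rose by 1.18 (SE 0.13) and Gch1, which makes a cofactor of Tph1, by 1.11 (SE 0.11). The falls were those of Slc6a4, the serotonin uptake transporter, which is an enterocyte gene in the gut (-3.21, SE 0.24), the amine oxidases Maob (-3.33, SE 0.23) and Maoa (-0.52, SE 0.12), and the glutathione transferase Gstt1 (-1.37, SE 0.11).

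Of 15 other peptide hormone genes, 2 were higher, 1 lower and 12 not called at day 12, and 6 had mean signals at the level of odorant receptors. Nucb2, the nesfatin precursor, rose by 1.67 (SE 0.15), Adm, the adrenomedullin gene, by 0.65 (SE 0.16), and Npy, a peptide of enteric neurons, fell by 0.45 (SE 0.15). Vip, another neuronal peptide, stood at -0.83 (SE 0.33, limma adjusted p = 0.0886). Of 25 receptors and peptidases of the hormones, 3 were higher, 4 lower and 18 not called, and 12 had mean signals at the odorant receptor level. Dpp4, the brush border peptidase that inactivates GIP and glucagon-like peptides, fell by 3.48 (SE 0.16). Mme, a peptidase that degrades substance P and neurotensin, fell by 2.88 (SE 0.29), the receptor Glp1r by 0.85 (SE 0.19) and Sort1, which binds neurotensin, by 0.85 (SE 0.12). Of 20 nutrient and signal receptors, 1 was higher and 4 lower, and 10 had mean signals at the odorant receptor level. Ffar4, a receptor of long-chain fatty acids, had 8.13 and 7.81 in KO and 5.53 and 5.50 in WT at day 12, a rise of 2.45 (SE 0.11), and the nutrient transporters Slc15a1 (-2.05, SE 0.19) and Slc5a1 (-1.91, SE 0.20) fell.

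**Figure D4:**
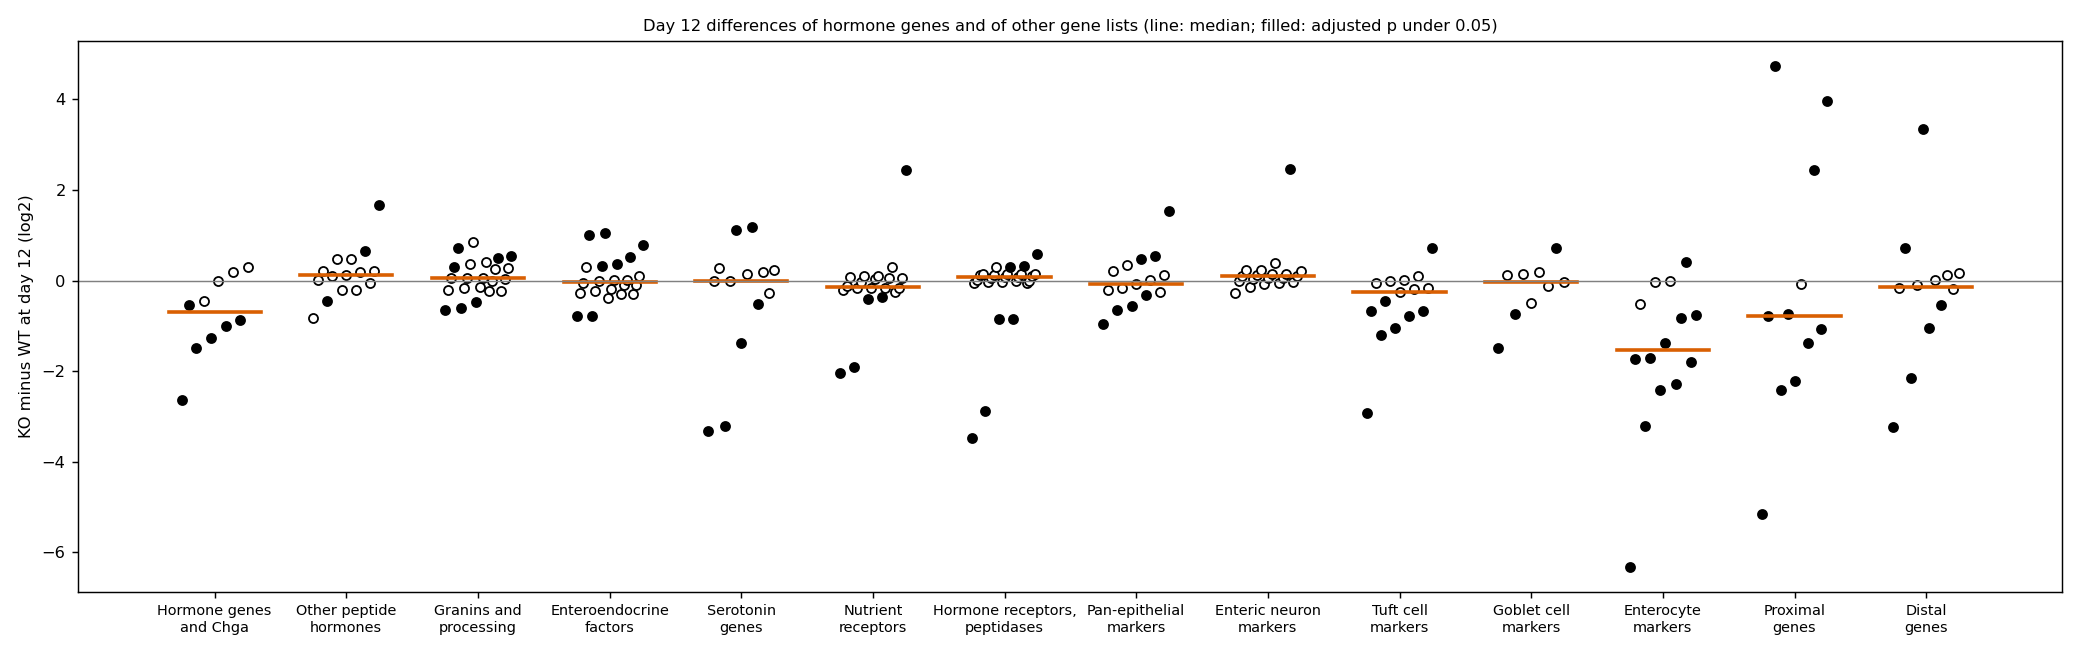
KO minus WT difference at day 12 on the log2 scale (vertical axis) of each gene in the hormone genes and 13 other lists (horizontal axis), filled where the adjusted p is under 0.05, with a bar at the list median. The hormone genes have a median of -0.70; enterocyte markers (-1.54) and proximal genes (-0.78) have lower medians, tuft cell markers stand at -0.26, and the other 10 lists between -0.14 and 0.13.

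In whole tissue, fewer cells of a type and less RNA per cell cannot be told apart. Summed markers of other tissue components were therefore read beside the hormone genes, and their part in the differences was not tested. The mean of 15 pan-epithelial markers, of which 3 rose and 4 fell, was 11.09 to 11.25 in KO and 11.11 to 11.23 in WT at day 12. As that mean was nearly equal in the genotypes, expressing each array relative to it could change the day 12 differences little. They were then -2.64 for Nts, -1.5 for Sst, -1.27 for Gip, -1.01 for Chga and -0.87 for Gcg. These values do not test the share of epithelium in the tissue. Of 14 enterocyte markers, 10 fell and 1 rose at day 12, with a median of -1.54, and the lactase gene Lct stood at -6.32 (SE 0.19). Of 19 enteric neuron markers, 9 had mean signals at the odorant receptor level and 1 was called at day 12. This was Ret, a receptor of neural progenitors that is also expressed elsewhere, which rose by 2.47 (SE 0.16). The pan-neuronal Elavl4 stood at 0.13 (limma adjusted p = 0.599) and near the odorant receptor level. The neuron list mean was 5.75 to 5.78 in KO and 5.57 to 5.58 in WT at day 12, and without Ret it was 5.57 to 5.59 in KO and 5.50 to 5.51 in WT. Of 14 smooth muscle markers 1 rose at day 12, Myocd by 0.55 (SE 0.19), and their mean was 7.60 to 7.79 in KO and 8.65 to 9.33 in WT at day 6 and 9.08 to 9.59 in KO and 8.80 to 8.88 in WT at day 12. With that mean as a covariate, Nts stood at -2.81, Sst at -1.57, Gip at -1.40, Chga at -1.05 and Gcg at -0.92 at day 12, each still called by limma. At day 6 the covariate moved Nts from 0.073 to 0.535 and Gip from 0.028 to 0.369, neither called (limma adjusted p = 0.707 and 0.706). The smooth muscle mean itself differed between KO and WT, so these values do not test the part of tissue composition. Pyy, not called in the plain fit at day 12, was called with that covariate (-0.54, adjusted p = 0.0476) and relative to the pan-epithelial mean (-0.46, adjusted p = 0.0404). Of 6 glial markers none was called at day 12, and 1, Erbb3, fell by 0.42 (SE 0.10) at day 9. Of 11 pancreas markers, 9 had mean signals at the odorant receptor level and 2 fell (Ctrl by 0.43 and Pnliprp1 by 0.29), and of 12 stomach markers 6 were at that level and 1 rose, Tff1 by 0.54.

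A single gene tied to position along the gut, Fabp6, differed between mice within groups at days 6 and 9. Fabp6, a bile acid binding protein of the ileum, had 6.44 and 5.87 in KO and 5.79 and 9.02 in WT at day 6, 7.36 and 5.63 in KO and 6.02 and 7.23 in WT at day 9, and 5.45 and 5.16 in KO and 5.57 and 4.99 in WT at day 12. At day 12 the Fabp6 groups overlapped close to the odorant receptor level. The mean of 12 distal genes, Fabp6 among them, varied less within groups. It ran from 9.51 to 9.74 in WT at day 6 and from 9.24 to 9.45 in KO at day 9. Of 11 genes typical of the proximal small intestine 3 rose and 7 fell at day 12, and of 12 typical of the distal part 2 rose and 4 fell, with medians of -0.78 and -0.13. Single genes of both lists moved in both directions. The ileal bile acid transporter gene Slc10a2 was higher in KO at all 3 days, by 1.40 (SE 0.17, limma adjusted p = 0.00334), 3.79 (SE 0.17) and 3.34 (SE 0.17), and Cubn, the cubilin gene, fell by 3.24 (SE 0.37) at day 12. Of the proximal genes, the iron exporter Slc40a1 (4.73, SE 0.15) and the iron reductase Cybrd1 (3.97, SE 0.21) rose at day 12 and Adh6a, an alcohol dehydrogenase gene, fell by 5.16 (SE 0.21). The part of position along the gut in the hormone differences was not tested. Of 11 secretory fate genes 3 rose and 2 fell, among them the Notch ligand Dll1 (-0.84, SE 0.10) and the crypt factor Sox9 (1.10, SE 0.16). Among the other secretory cells, 7 of 15 tuft cell markers fell and 1 rose at day 12, with Rgs13 at -2.94 (SE 0.19) and Dclk1 at -1.20 (SE 0.12), while 2 of 9 goblet cell markers fell and 1 rose, with the antimicrobial Ang4 at -1.49 (SE 0.19), Clca1 at -0.75 (SE 0.15), the trefoil peptide Tff3 at 0.73 (SE 0.20) and the mucin Muc2 at 0.12 (adjusted p = 0.599). Cep43, the targeted gene, differed by -0.31, -0.39 and -0.09 (SE 0.11 each) at days 6, 9 and 12 and passed at day 9 alone (limma adjusted p = 0.0184). The deleted part of the gene is not stated in the labels, so this signal is a weak check of the labels.

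The genes with the most similar profiles over the 12 arrays were found by the root mean square (RMS) difference between profiles, each centred on its own mean, without regard to function. For Chga they were the creatine transporter Slc6a8, the cargo receptor Lman2 and the brush border protein Vil1, at RMS differences of 0.07, 0.09 and 0.09 log2 units, while Chga itself varied with a standard deviation of 0.41. For Sst they were Clec2d, the fatty acid transporter Slc27a4 and the corepressor Tle3 (0.13 to 0.15). For Gcg they were Pold2, E2f2 and Racgap1, with roles in DNA replication or cell division (0.13 to 0.14), and for Gip the nuclear receptor Esrra, the cytokine signalling inhibitor Socs3 and the histone gene H4c4 (0.13 to 0.19). For Nts, with a standard deviation of 1.09, the nearest were St3gal4, Crip1 and Slc25a22 (0.28 to 0.31). RMS differences are not scaled to a gene's own spread, so they do not rank the members by closeness of match. Among the members themselves the smallest distance was that of Cck and Sct (0.16), followed by Sct and Tac1 (0.20) and Gcg and Chga (0.21), and the largest was that of Nts and Tac1 (1.13). Cck, Sct and Tac1 varied little, with standard deviations of 0.29, 0.26 and 0.29 over KO mice, where Nts had 1.32. Distances among genes that vary little are small whatever their patterns. For Pyy the nearest were Relb, Panx1 and Gal3st2c (0.12 to 0.14), and for Ghrl they were Pold1, Umps and Polr1b (0.10 to 0.11). The standard deviations of Pyy and Ghrl were small, at 0.32 and 0.26.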

How the data were processed

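Whole jejunum RNA of 12 mice was measured on Affymetrix Mouse Gene 1.0 ST arrays, per the labels. Values for 35556 probe sets were taken as the authors deposited them, as log2 signal between 2.29 and 14.13; array medians lay between 5.95 and 6.02. How the authors corrected background and normalised these values is not stated in the labels or headers; the submitters' processing notes list R 3.5 and limma. One gene symbol was given for 21789 probe sets, several for 1621 and none for 12146. The probe set with the highest mean stood for each of 999 symbols with several, leaving 19938 genes.

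One mean per group was fitted to the 12 arrays with limma 3.58.1 (R 4.3.3) and moderated by empirical Bayes, with 6 residual degrees of freedom and 5.23 from the prior. Tests were two-sided and Benjamini-Hochberg adjusted over all genes. Daily differences had a median SE of 0.12, which the number of arrays limits. On simulated data for KO against WT at day 9 (3 runs, 200 of 19938 genes changed), limma called 50.6%, 91.1% and 98.1% of genes changed by 1.5, 2 and 4 times. In the data 29.7% of genes were called at day 9, a far larger share than was changed here. The adjustment therefore differs, and these rates need not hold for the data.

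The 10 members and 18 other gene lists (276 of 298 entries measured, members included) were chosen with earlier results of these data known. Named are the members, up to 4 called genes per list with the largest differences at day 9 or 12, some fixed markers, and the 3 most similar genes per called member. Insm1, Ptprn2, Slc18a1, Trpa1, Maoa, Fabp6 and Muc2 lie outside that rule and were chosen after their values were seen, and Pcsk2 was not analysed here. Promoters are from RefSeq. Alternatives changed scaling, filters, the variance model, covariates and the arrays included. Same-numbered mice did not deviate together (correlations of -0.15 to 0.35, with 4 of 15 above 0.1), so numbers were not used as pairs.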

Additional observations from a re-analysis of the deposited data

Results flagged for a closer look

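For 5 of the 10 genes the KO minus WT difference was not the same on every day by limma's F test of the genotype by day interaction, adjusted over all genes. The adjusted p was 1.84e-04 for Nts, 7.34e-04 for Gip, 0.0025 for Gcg, 9.16e-04 for Sst and 0.00233 for Chga. Between days 6 and 12 the difference moved by -2.71 for Nts (SE 0.27), -1.30 for Gip (SE 0.19), -1.02 for Gcg (SE 0.15), -1.41 for Sst (SE 0.18) and -0.99 for Chga (SE 0.15). No group had the 4 or more mice that a test for an outlying sample needs.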

How the results depend on the processing

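Of 870 single values (10 genes in 4 comparisons under the alternatives), 825 kept their side of the threshold and any call its direction, 26 lost a call and 19 gained one; none that was called changed sign. The counts of members called were 0, 4 and 6 at days 6, 9 and 12, 7 averaged over days, 5 for the interaction, 8 within KO and 0 within WT. With a fold of 1.5 added to the call rule, the count averaged over days was 2. With 1 array left out, counts ran 0 to 0 at day 6, 2 to 4 at day 9, 6 to 7 at day 12, 5 to 7 averaged over days, 5 to 5 for the interaction, 7 to 9 within KO and 0 to 0 within WT. Genes called among all 19938 then ran 21 to 291 at day 6, 3646 to 6542 at day 9 and 3740 to 5557 at day 12. No array left out ended the day 12 calls of Nts, Sst, Gip, Gcg or Chga, whose differences then ran from -2.83 to -2.44, -1.61 to -1.39, -1.37 to -1.17, -0.95 to -0.80 and -1.09 to -0.93. With quantile normalisation Gcg was -0.31 at day 9 (limma adjusted p = 0.0515). Averaged over days, the call of Pyy ended under quantile normalisation (adjusted p = 0.0532), with all probe sets tested (0.0643) and with the smooth muscle covariate (0.0774), and that of Ghrl under quantile normalisation (0.0821), with all probe sets (0.0807) and with a mean-variance trend (0.0513). Sct (0.26, adjusted p = 0.0501) was called under quantile normalisation, centred arrays and the filter on dim genes. With the replicate block, Pyy was also called at day 12 (-0.46, adjusted p = 0.0369), and the counts were 0, 4, 7, 7, 5, 8 and 0 in the order above, so the block changed no other count. Whole-tissue signal and 2 mice per group limit all of these values. The causes of these changes were not tested.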
